A study of Mus musculus with 17 samples.

Results

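The genes described here code for the subunits of the mitochondrial respiratory chain and of ATP synthase in mouse embryonic stem (ES) cells. They were chosen by name, as protein-coding genes of the Nduf, Sdh, Uqcr, Cox, Atp5 and mt- families together with Cyc1 and Cycs, with a mean of at least 1 CPM (counts scaled to library size) over the 17 libraries. Of the 47729 genes listed, 108 matched by name and 102 passed the minimum. Nuclear DNA carries 91 of these 102 and mitochondrial DNA carries 11. The nuclear-coded members comprise 36 genes of complex I, 8 Ndufaf genes that the name pattern also takes in and that code for complex I assembly factors rather than subunits, 4 of complex II, 9 of complex III, 16 of complex IV, 17 of complex V and Cycs for cytochrome c. Atp5s, counted here with complex V, codes for a factor that is not in the enzyme. Cox7a2l, counted with complex IV, serves supercomplex assembly. The mitochondrial-coded members are 5 of complex I, 1 of complex III, 3 of complex IV and 2 of complex V. The 6 genes under the minimum were mt-Nd3, mt-Nd4l, Cox4i2, Cox6a2, Cox8b and Cox8c.

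The respiratory chain passes electrons from NADH (complex I) and succinate (complex II) through complex III and cytochrome c to oxygen at complex IV, and the protons it pumps drive ATP synthase, which is complex V. Complexes I, III, IV and V are built from subunits of both genomes, whereas complex II is wholly nuclear-coded. Naive ES cells are known to respire more than the primed cells of the epiblast after implantation, in which glycolysis carries more of the energy supply.

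R1 and CGR8, both established mouse ES cell lines, were grown in serum-free N2B27 medium with LIF in every group. L2i medium held CHIR99021 at 3 uM, an inhibitor of GSK3, and PD325901 at 0.1 uM, an inhibitor of MEK. LIM medium held PD325901 with IWP2 at 2 uM, which blocks the secretion of Wnt ligands, and so had no CHIR99021. LFAI medium held FGF2 at 12 ng/ml, Activin A at 20 ng/ml and IWP2, with neither of the kinase inhibitors. The labels name no genetic change in any group. In the set with both lines, each of 4 groups had 1 R1 and 1 CGR8 library (n = 2). These were L2i (R1 after 10 and CGR8 after 8 passages in it), LIM (4 and 6 passages), LFAI for 35 h and LFAI for 4 days, with passage numbers from 26 to 34. For the groups outside L2i the labels also give passages in L2i. For R1 and CGR8 these were 5 and 5 in LIM, 9 and 7 at 35 h and 3 and 9 at 4 days. A time course of R1 alone, at passage 32, had 1 library in L2i as day 0 and 1 library on each of days 1 to 4 in LIM and in LFAI. Its passages in L2i were 5 for day 0, 4 for days 1 to 3 and 3 for day 4. The time course was grown on gelatin and fetal calf serum and sequenced with another kit version than the other set, which was grown on gelatin and basement membrane extract, so that tests and scaled levels are kept within a set. In every group the replicates are 1 library of each line, and the p-values below therefore measure the spread between a pair of lines and not between repeated cultures of either.

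Gene counts per library ran from 12.9 M to 22.6 M (M, mega), the deepest being R1 in L2i. Between 36.2% and 45.2% of the entries tallied by the authors' counting were left out of the gene counts as aligned to more than 1 place. Whether a read could be tallied more than once is not given, so this may not be the share of reads. The summed level of Pou5f1, Sox2, Nanog and Zfp42 was between 1636 and 4180.4 CPM in all 17 libraries, with none of the 4 at 0. In the set with both lines, R1 and CGR8 had 1823 and 1378 CPM of Pou5f1 in L2i and 1810 and 1926 at 4 days of LFAI. Sox2, Nanog and Zfp42 were lower at 4 days. Sox2 had 304 and 322 CPM in L2i and 92.3 and 81.9 at 4 days. Nanog had 1169 and 971 in L2i and 27.0 and 40.1 at 4 days. Zfp42 had 885 and 696 in L2i and 12.5 and 10.6 at 4 days. Otx2, Fgf5, Dnmt3b and Pou3f1 mark the epiblast after implantation. In this set they summed to 112 to 122 CPM in L2i and 1006 to 1299 in LIM. Their sum was 914 to 1700 at 35 h of LFAI and 2515 to 2674 at 4 days. In the same set, the 6 primitive endoderm markers summed to 2.92 to 3.63 CPM in L2i, 9.75 to 10.8 in LIM, 2.67 to 3.38 at 35 h and 1.11 to 2.20 at 4 days, and the 7 fibroblast markers to 2.06 to 3.17 in L2i, 10.02 to 23.4 in LIM, 7.01 to 7.37 at 35 h and 13.5 to 18 at 4 days, with Postn and Lum at 0 in several libraries. The 6 trophoblast markers summed to 111 to 116 CPM in L2i, 63.0 to 69.3 in LIM and 9.47 to 19.6 in LFAI, most of it in L2i and LIM from Tfap2c, which ES cells also express. Cdx2 was at 0 in all 4 LFAI libraries of the set, and Elf5 was at most 0.357 CPM in any library. The part of these markers in the subunit results was not tested. In RNA from whole cultures, fewer cells of a type and less RNA per cell cannot be told apart.

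The sequences of the mitochondrial-coded subunits bear on what their counts can hold. Mouse chromosome 1 holds a nuclear copy of a stretch of mitochondrial DNA, annotated in GENCODE M21 (GRCm38) as 7 pseudogenes on the minus strand between positions 24611535 and 24616197. A read that fits both places equally well has no single origin. mt-Co3, which codes for a core subunit of complex IV, shares an unbroken run of 783 of its 784 bases with the pseudogene Gm28437. A stretch of 50 bases of each, at chrM:8907-8956 on the plus strand and chr1:24613622-24613671 on the minus strand, is shown because every letter is the same.
mt-Co3: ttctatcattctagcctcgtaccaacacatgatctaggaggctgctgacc
Gm28437: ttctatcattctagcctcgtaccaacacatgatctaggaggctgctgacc
The longest runs shared with these pseudogenes covered 99.6% of mt-Co2, 99.6% of mt-Atp6, 99.0% of mt-Nd4l, 98.3% of mt-Nd3, 63.6% of mt-Nd4 and 31.0% of mt-Co1. No run of 50 bases or more was shared with these 7 by mt-Nd1, mt-Nd2, mt-Nd5, mt-Nd6, mt-Cytb or mt-Atp8. Counted over all annotated genes, 8.19% of the 50-base words of mt-Nd2, 7.61% of those of mt-Nd5 and 51.1% of those of mt-Co1 also occur elsewhere.

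Levels of different genes are set side by side as CPM per kilobase of exon, here as the median and range over all 17 libraries of both sets, with no scaling between them. mt-Co1, the catalytic core of complex IV, was at 2820 (range 1916 to 4642), mt-Cytb, the cytochrome b of complex III, at 2493 (range 1539 to 3088), and mt-Nd1, which lies where quinone binds in complex I, at 2180 (range 1298 to 3526). The genes almost wholly inside the chromosome 1 copy were far below them. mt-Co2 was at 5.34 (range 1.65 to 11.7), mt-Co3 at 4.72 (range 1.04 to 11.1) and mt-Atp6 at 4.43 (range 1.28 to 9.32). For these 3 the sets differed, with medians in the set with both lines and in the time course of 2.43 and 8.02 for mt-Co2, 1.35 and 5.92 for mt-Co3 and 1.89 and 6.28 for mt-Atp6. mt-Nd3 and mt-Nd4l, at 0.683 and 0.739, fell under the minimum for members. mt-Nd6, the only member coded on the minus strand of mitochondrial DNA, was at 24.0 (range 7.72 to 37.1) although it shares no such run. mt-Co2, mt-Co3 and mt-Atp6 had 0.818 to 8.74 CPM per library. The share of their reads that the counting left out was not tested, so their levels are those of the deposited counts and not of the RNA.

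**Figure D1:**
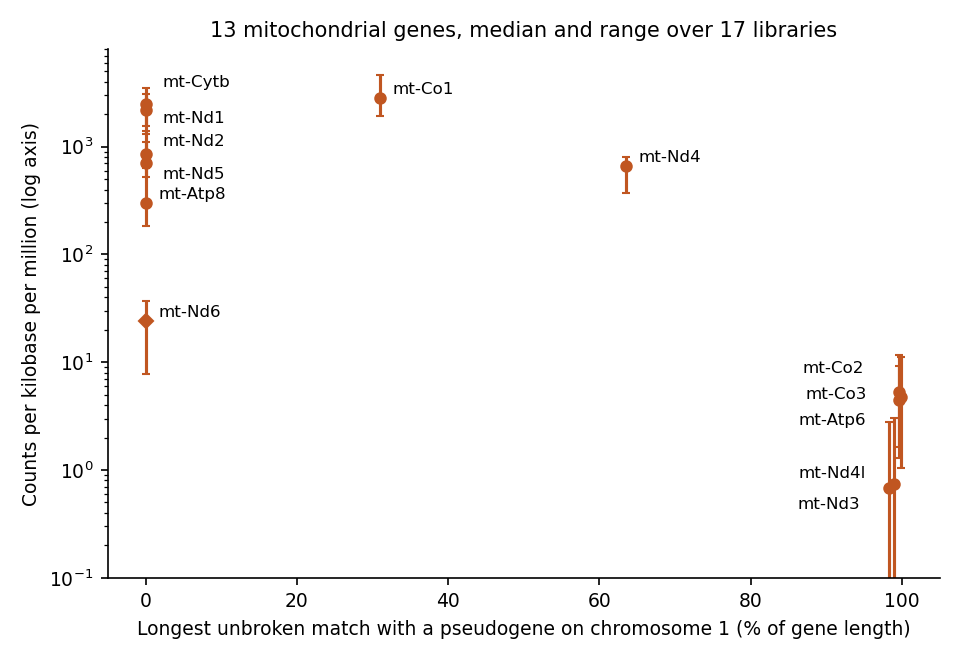
Level per length of the 13 mitochondrial protein genes (median and range over 17 libraries, log axis) against the percent of the gene inside its longest unbroken match with a chromosome 1 pseudogene. The 5 genes with a match over 98% lie under 12 CPM per kilobase in every library (the ranges of mt-Nd3 and mt-Nd4l reach 0, off the axis), and the diamond is mt-Nd6, coded on the minus strand.

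Among nuclear-coded members, the highest levels per length were those of Atp5b and Atp5a1, the catalytic and the non-catalytic subunit of the ATP synthase head, at 596 (range 469 to 754) and 464 (range 404 to 569.9). In complex IV they were Cox8a at 304 and Cox4i1 at 283, in complex III Uqcr10 at 263 and Uqcr11 at 134, in complex II Sdhd at 127 and Sdha at 71.1, and in complex I Ndufa2 at 114. The median member was at 97.7 in complex IV, 86.5 in complex III, 61.9 in complex II, 47.2 in complex V and 44.0 in complex I, against 9.05 for the 8 assembly factors. These medians describe the deposited counts, and some nuclear members also share sequence with other genes. Of the distinct 50-base words of the transcripts, 64.1% for Ndufaf2, 41.6% for Atp5o, 38.4% for Atp5g2 and 26.2% for Cycs also occur in another annotated gene. Cycs, the somatic cytochrome c gene, stood at 4.96 per kilobase.

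Nuclear respiratory chain genes are classic targets of the factors NRF1, GABPA, YY1 and the estrogen-related receptors (ERR). Promoters in the RefSeq table (GRCm38.p6) were found for 76 of the 91 nuclear members, and the 250 bases before each RefSeq start were searched on both strands. The NRF1 letters, GCGCA and GCGC with any base between them, were in 14 of these 76 members (18.4%), against 4.23% of all 27025 genes in the table. The ETS letters CCGGAAGT of GABPA were in 3 (3.95%, against 3.23%), the YY1 letters AANATGGCG in 3 (3.95%, against 1.29%) and the ERR letters TCAAGGTCA in 1 (1.32%, against 0.422%). Of the 14 members with the NRF1 letters, 4 were called in at least 1 comparison below, beside 33 of all 102 members. The 102 include mitochondrial genes and nuclear members whose promoters were not searched, so these are not shares of like sets. The 1 member with the ERR letters was called as well. A link between the letters and the calls was not tested. These called members are shown in the direction of the gene. The motif is in capitals, with 10 bases on each side where the window allows. They lie at chr2:10080433-10080459 (Atp5c1), chr6:24527697-24527726 (Ndufa5), chr4:24897960-24897989 (Ndufaf4), chr9:50603909-50603938 (Sdhd) and chr2:73911360-73911388 (Atp5g3), on the plus strand for Ndufaf4 and on the minus strand for the others. The starts differ between annotations. In GENCODE M21 the spans of Atp5c1 (chr2:10056016-10080510) and Ndufa5 (chr6:24518666-24528013) take in the stretches shown.
Atp5c1: ctgagctcccGCGCACGCGCactgagt
Ndufa5: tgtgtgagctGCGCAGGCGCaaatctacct
Ndufaf4: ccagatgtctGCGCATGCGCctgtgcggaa
Sdhd: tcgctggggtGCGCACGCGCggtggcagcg
Atp5g3: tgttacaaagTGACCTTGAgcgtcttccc
The first 4 hold the NRF1 letters and Atp5g3 the ERR letters, read on the other strand. Cox7a1, Cox5a and Uqcr10, described below, had none of these letters in this window.

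A gene was called where edgeR's quasi-likelihood test, fitted over 15525 genes in 8 libraries, 2 for each group, gave a Benjamini-Hochberg adjusted p under 0.05. In LIM against L2i, 16 of 91 nuclear members were lower (background 7.81% of all genes) and 1 was higher (11.3%, or 19.1% in either direction), while 3 of 11 mitochondrial members were lower and 0 higher. In LFAI at 35 h against L2i, 3 nuclear members were lower (7.16%), 0 were higher (7.35%, or 14.5% in either direction) and 0 mitochondrial members were called. In LFAI at 4 days against L2i, 7 nuclear members were lower (23.3%) and 2 higher (21.5%, or 44.8% in either direction). There 3 of 11 mitochondrial members were lower, a share near the 23.3% of all genes. In LFAI at 4 days against LIM, 14 nuclear members were higher (12.3%) and 3 lower (17.2%, or 29.5% in either direction), with 0 mitochondrial members called. The nuclear share called lower in LIM was thus above the background, that called higher at 4 days against LIM slightly so and that called lower there below it, and the shares at 35 h and at 4 days against L2i were also below it. The last comparison shares the LIM libraries with the first and the 4-day libraries with the third, and the first 3 share the L2i libraries.

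The median log2 difference of the 91 nuclear members was -0.29 in LIM, -0.25 at 35 h and -0.01 at 4 days against L2i, and 0.29 at 4 days against LIM, where all genes tested had medians between -0.02 and 0.01. Single libraries moved these medians by over 1.5 times. The LIM median was -0.18 without R1 in L2i, and the 35 h median -0.11 without it. The 4-day median against L2i changed sign with the library left out, at -0.13 without CGR8 in L2i, -0.14 without CGR8 at 4 days, 0.08 without R1 in L2i and 0.10 without R1 at 4 days. Against LIM, the 4-day median was 0.14 without CGR8 at 4 days. In LIM, 61 of 91 nuclear members had both libraries under both L2i libraries (29.8% of all genes), and at 35 h 50 did (29.7%). At 4 days against L2i, 23 had both libraries below (37.0%) and 20 both above (36.9%). At 4 days against LIM, 53 had both libraries above both LIM libraries (33.6%). Most of these differences were small, and 4 of the 52 calls outlasted the removal of each library in turn, namely Cox7a1 in its 3 comparisons with L2i and mt-Nd1 at 4 days. With the L2i and day 4 LFAI libraries of the time course added, 5 of the 12 calls at 4 days against L2i were kept, and mt-Nd1 was among the 7 lost. Leaving a library out also leaves its group with 1, which is then assumed to vary like the others.

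**Figure D2:**
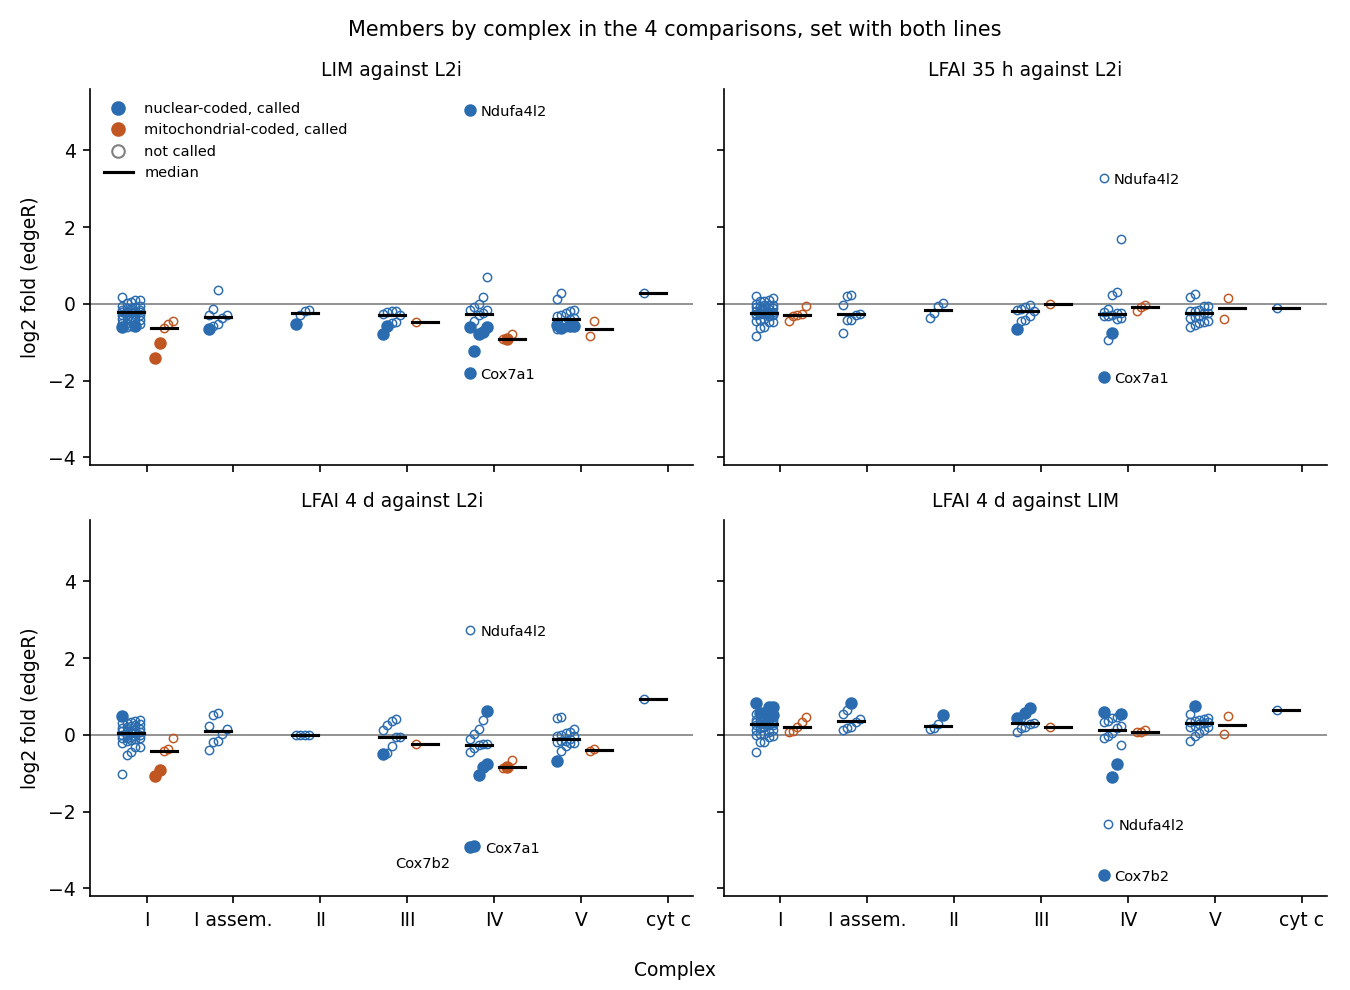
log2 fold of each of the 102 members by complex in the 4 comparisons, from the edgeR fit over both lines; filled points were called at an adjusted p under 0.05 and bars are medians. Nuclear members lie mostly below 0 in LIM and at 35 h against L2i and mostly above 0 at 4 days against LIM, with Cox7a1, Cox7b2 and Ndufa4l2 of complex IV farthest out.

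The sum of the 91 nuclear members, as a percent of counts after TMM scaling, was 1.67 in R1 and 1.44 in CGR8 in L2i, 1.21 and 1.33 in LIM, 1.39 and 1.29 at 35 h, and 1.36 and 1.58 at 4 days. Both LIM libraries and both 35 h libraries were under both L2i libraries, and the 4-day libraries lay on either side of CGR8 in L2i. The sum of the 11 mitochondrial members was 1.27 in R1 and 1.88 in CGR8 in L2i, 1.07 and 0.815 in LIM, 1.52 and 1.34 at 35 h, and 0.995 and 1.11 at 4 days. Here LIM and 4 days were under both L2i libraries and both 35 h libraries lay between those of L2i. The lines contributed unequally. Between L2i and LIM the median nuclear member changed by -0.45 on the log2 scale in R1 and -0.11 in CGR8, and the median mitochondrial member by 0.02 in R1 and -1.10 in CGR8.

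**Figure D3:**
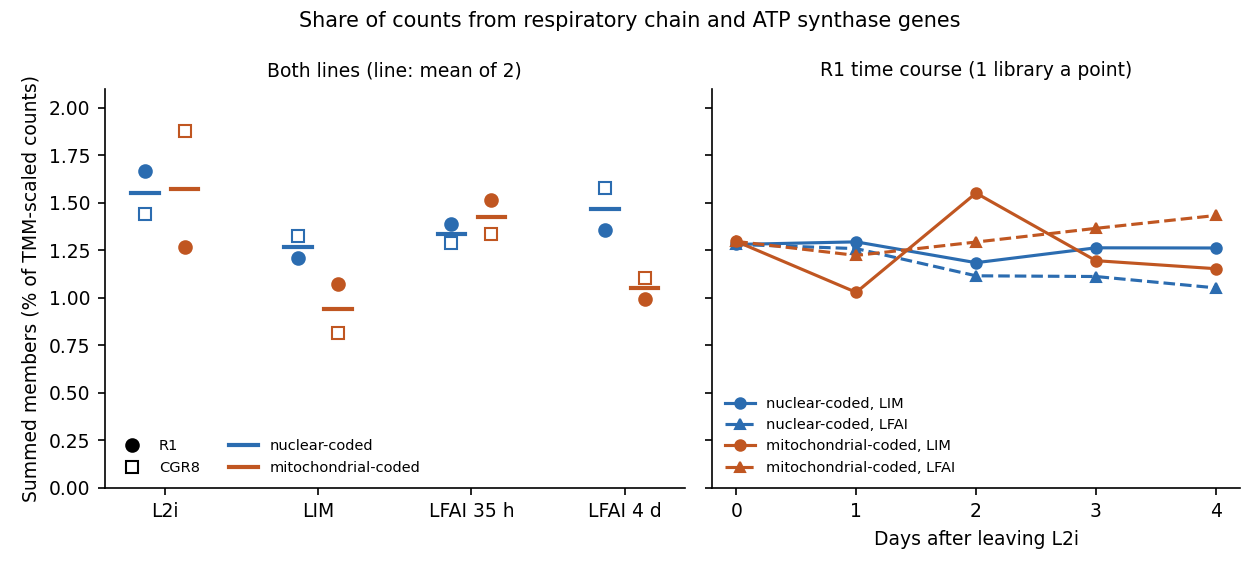
Summed nuclear-coded and mitochondrial-coded members as a percent of TMM-scaled counts, in the set with both lines (left; points are libraries, bars the mean of 2) and in the R1 time course (right, 1 library a point). The mean nuclear sum is lowest in LIM on the left but stays near its start over 4 days of LIM on the right, and the mitochondrial sum at 4 days of LFAI is low on the left and at its highest LFAI value on the right.

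Among the mitochondrial-coded members, mt-Nd1 of complex I, mt-Nd6 of complex I and mt-Co1 of complex IV were called lower in LIM and at 4 days of LFAI. At 4 days these 3 of 11 were a share near the 23.3% of all genes called lower. R1 and CGR8 had 2282 and 3374 CPM in L2i, 1564 and 1242 in LIM, 2655 and 2025 at 35 h and 1487 and 1523 at 4 days for mt-Nd1, which lies at chrM:2751-3707. Both LIM and both 4-day libraries were under both L2i libraries, whereas at 35 h R1 lay between them. The log2 fold, here and below with its standard error after ±, was -1.01 ± 0.21, adjusted p = 0.0127 in LIM and -0.91 ± 0.21, adjusted p = 0.00852 at 4 days by edgeR's quasi-likelihood test. For mt-Co1, at chrM:5328-6872, R1 and CGR8 had 5179 and 7171 CPM in L2i, 3594 and 2961 in LIM, 6271 and 5310 at 35 h and 3104 and 3852 at 4 days. LIM and 4 days again lay under both L2i libraries, while both 35 h libraries lay between those of L2i, with log2 folds of -0.91 ± 0.20, adjusted p = 0.014 in LIM and -0.83 ± 0.20, adjusted p = 0.00913 at 4 days. mt-Nd6 had 15 and 16.2 CPM in L2i, 4.01 and 7.79 in LIM, 11.9 and 11.0 at 35 h and 6.42 and 8.49 at 4 days, and every library outside L2i was under both of L2i (log2 -1.40 ± 0.33, adjusted p = 0.0205 and -1.06 ± 0.33, adjusted p = 0.0281).

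The other large mitochondrial genes were not called, and their LIM and 4-day libraries overlapped with L2i. mt-Cytb stood at 2538 and 3533 CPM in L2i, 2636 and 1761 in LIM, 3141 and 2896 at 35 h and 2490 and 2605 at 4 days, so that R1 in LIM was above R1 in L2i and CGR8 in LIM was the lowest of the 8. mt-Nd4 had 799 and 1111 CPM in L2i, 812 and 516 in LIM, 967 and 856 at 35 h and 861 and 958 at 4 days, with the same low value in CGR8 in LIM. mt-Nd2, mt-Nd5 and mt-Atp8 also had their highest value in CGR8 in L2i, at 1440, 1998 and 128 CPM against 745, 1061 and 38.0 in R1. The log2 fold of mt-Atp8 at 4 days against L2i was -1.07 without R1 in L2i and 0.68 without CGR8 in L2i. Without the CGR8 library in L2i, 0 mitochondrial members were called in LIM, and at 4 days 1 was called lower and mt-Atp8 was called higher (log2 0.68, adjusted p = 0.0363 by edgeR's quasi-likelihood test). With the time course libraries added, none of mt-Nd1, mt-Nd6 and mt-Co1 was called at 4 days (adjusted p = 0.1, 0.124 and 0.0836). Without CGR8 in LIM 1 was called in LIM, without R1 in L2i 5 were called in each, and without R1 at 4 days 1 was called at 4 days. At 35 h 2 were called lower without R1 in L2i. mt-Co2, mt-Co3 and mt-Atp6 had at most 3.65 CPM in this set and none was called.

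Complex I takes electrons from NADH. In LIM, 31 of its 36 nuclear members had a log2 fold below 0, with a median of -0.22, and 2 were called, both lower (7.81% of all genes). At 4 days against LIM, 6 of the 36 were called higher (12.3% of all genes). Ndufs8, a core subunit that carries iron-sulfur clusters, had 83.6 and 71.4 CPM in L2i, 49.0 and 52.3 in LIM, 71.1 and 59.5 at 35 h and 86.0 and 80.7 at 4 days in R1 and CGR8. Both LIM libraries were the lowest of the 8, with a log2 fold of -0.61 ± 0.15, adjusted p = 0.0229 against L2i and 0.72 ± 0.15, adjusted p = 0.0089 for 4 days against LIM by edgeR's quasi-likelihood test. Ndufc2, an accessory subunit of the membrane arm, had 63.0 and 63.5 CPM in L2i, 40.3 and 45.1 in LIM, 59.8 and 51.2 at 35 h and 63.8 and 77.6 at 4 days. LIM was again lowest (log2 -0.57 ± 0.16, adjusted p = 0.0366, and 0.73 ± 0.16, adjusted p = 0.0102 for 4 days against LIM). The other 4 complex I genes called higher at 4 days against LIM were the core subunit Ndufs3 (log2 0.52, adjusted p = 0.0375) and the accessory subunits Ndufa2 (0.56, 0.0225), Ndufa5 (0.56, 0.038) and Ndufa12 (0.83, 0.0398). Ndufa2 was also the 1 complex I gene called against L2i at 4 days, at 87.9 and 102 CPM against 71.5 and 63.0 (log2 0.50, adjusted p = 0.0227). With the cell line as a block, Ndufa3 was called lower in LIM and at 4 days against L2i (adjusted p = 0.0468 and 0.0276), Ndufb4 lower at 4 days against L2i (0.0388) and Ndufs7 higher at 4 days against LIM (0.0495).

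Of the 8 complex I assembly factors, Ndufaf4 had 33.9 and 43.4 CPM in L2i, 26.4 and 22.4 in LIM, 32.9 and 31.3 at 35 h and 40.5 and 46.1 at 4 days, lower in both LIM libraries than in any other (log2 -0.66 ± 0.18, adjusted p = 0.0343 against L2i by edgeR's quasi-likelihood test). At 4 days it was higher than in LIM (log2 0.83 ± 0.18, adjusted p = 0.0105). The other 7 were not called in any comparison. Complex II oxidises succinate and is anchored in the membrane by Sdhc and Sdhd. Sdhd had 191 and 183 CPM in L2i, 119.8 and 140.2 in LIM, 152 and 136 at 35 h and 172 and 199.9 at 4 days, the 2 LIM libraries being 2 of the 3 lowest, with log2 folds of -0.52 ± 0.14, adjusted p = 0.0291 in LIM and 0.52 ± 0.14, adjusted p = 0.0229 at 4 days against LIM. Sdha, Sdhb and Sdhc were not called. All 4 had 4-day log2 folds between -0.0144 and -0.000331 against L2i, but the lines went opposite ways. For Sdha, Sdhb, Sdhc and Sdhd, R1 had -0.14, -0.17, -0.27 and -0.15, and CGR8 had 0.13, 0.13, 0.30 and 0.13.

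Complex III passes electrons to cytochrome c. All 9 of its nuclear members had log2 folds below 0 in LIM, with a median of -0.29, and 2 small accessory subunits were called lower (7.81% of all genes). Uqcrb, which lies near the quinone site, had 59.3 and 64.3 CPM in L2i, 33.4 and 38.5 in LIM, 41.3 and 37.5 at 35 h and 37.8 and 50.5 at 4 days in R1 and CGR8. Every library outside L2i was under both L2i libraries. Its log2 fold was -0.78 ± 0.18, adjusted p = 0.017 in LIM and -0.65 ± 0.18, adjusted p = 0.0417 at 35 h by edgeR's quasi-likelihood test, and at 4 days it was -0.48 with an adjusted p of 0.0516, or 0.0361 with the line as a block. Uqcr10 had 225 and 179 CPM in L2i, 128 and 142 in LIM, 154 and 145 at 35 h and 122 and 162 at 4 days, with log2 folds of -0.58 ± 0.17, adjusted p = 0.045 in LIM and -0.51 ± 0.17, adjusted p = 0.0376 at 4 days. The nuclear-coded subunits with redox centres were called only against LIM. Cyc1, the cytochrome c1, had 278 and 239 CPM in L2i, 204 and 241 in LIM, 254 and 215 at 35 h and 315 and 343 at 4 days, highest at 4 days (log2 0.57 ± 0.15, adjusted p = 0.02 against LIM). Uqcrfs1, the Rieske protein, and the small subunit Uqcrq were likewise called higher at 4 days against LIM (log2 0.45 and 0.71, adjusted p = 0.0427 and 0.0167).

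Complex IV reduces oxygen. Of its 16 nuclear members, 6 were called lower in LIM (7.81% of all genes), 2 at 35 h (7.16%) and 5 at 4 days against L2i (23.3%). Cox7a1, the subunit isoform known from heart and skeletal muscle, at chr7:30184144-30186078 on the plus strand, was the only member called in all 4 comparisons. R1 and CGR8 had 34.7 and 26.1 CPM in L2i, 6.70 and 10.6 in LIM, 6.91 and 9.22 at 35 h and 4.15 and 3.92 at 4 days. The L2i pair lay above every other library and the 4-day pair below every other, without overlap. Its log2 fold against L2i was -1.81 ± 0.29, adjusted p = 0.00399 in LIM, -1.91 ± 0.30, adjusted p = 0.00407 at 35 h and -2.91 ± 0.31, adjusted p = 0.000145 at 4 days by edgeR's quasi-likelihood test, the last a 7.52-fold lower level. At 4 days it was also below LIM (log2 -1.10 ± 0.30, adjusted p = 0.0265), a call lost without either 4-day library or without CGR8 in LIM. Its partner isoform Cox7a2, expressed in most tissues, had 236 and 169.5 CPM in L2i, 111 and 125 in LIM, 152 and 156 at 35 h and 155 and 187 at 4 days, lowest in LIM (log2 -0.79 ± 0.18, adjusted p = 0.016). Cox7a1 made up 20.5% and 21.4% of the pair per kilobase in L2i, 9.64% and 13.1% in LIM, 7.43% and 9.43% at 35 h, and 4.52% and 3.56% at 4 days.

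Cox5a, which binds the inner face of complex IV, had 407 and 307 CPM in L2i, 195 and 233 in LIM, 197 and 225 at 35 h and 164 and 239 at 4 days. All 6 libraries outside L2i were under both of L2i, and the log2 fold was -0.74 ± 0.21, adjusted p = 0.0394 in LIM, -0.76 ± 0.21, adjusted p = 0.0426 at 35 h and -0.83 ± 0.21, adjusted p = 0.0118 at 4 days by edgeR's quasi-likelihood test. The fall was larger in R1 (log2 -1.31 at 4 days) than in CGR8 (-0.36). Cox6b1, Cox6c and Cox7c, small nuclear subunits, were also called lower in LIM (log2 -0.61, -0.59 and -1.24). Cox7c had 87.1 and 39.6 CPM in L2i, 25.3 and 28.6 in LIM, 26.0 and 39.6 at 35 h and 29.5 and 31.8 at 4 days, so that R1 in L2i stood far above the other 7, and both of its calls were lost without that library. Its transcript shares 22.1% of its 50-base words with other genes. At 4 days Cox7c was also below L2i (log2 -1.05 ± 0.34, adjusted p = 0.0337).

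A pair of complex IV isoforms known from testis was called lower at 4 days against both L2i and LIM. Cox6b2 had 43.5 and 58.6 CPM in L2i, 55.9 and 45.6 in LIM, 58.2 and 67.7 at 35 h and 25.6 and 34.4 at 4 days, the 4-day pair being the lowest (log2 -0.77 ± 0.21, adjusted p = 0.0185 against L2i by edgeR's quasi-likelihood test, and -0.76 ± 0.21, adjusted p = 0.0289 against LIM). Cox7b2, at low levels, had 2.34 and 1.66 CPM in L2i, 4.63 and 1.96 in LIM, 9.33 and 3.70 at 35 h and 0.315 and 0.196 at 4 days, which at 4 days rested on 5 and 3 counts. It was highest at 35 h in R1 and lowest at 4 days, with log2 folds of -2.94 ± 0.73, adjusted p = 0.0111 against L2i and -3.65 ± 0.73, adjusted p = 0.00717 against LIM, and with the line as a block it was called higher at 35 h (adjusted p = 0.0275). Both of its calls at 4 days were lost without the CGR8 library of that group. The R1 time course did not show these lower levels. On days 1 to 4 of LFAI, Cox6b2 had 56.8, 50.5, 62.1 and 55.3 CPM from 58.9 on day 0, and Cox7b2 had 2.12, 2.40, 5.61 and 2.39 from 1.32. With the day 0 and day 4 libraries added to the fit, neither was called against L2i (adjusted p = 0.0553 and 0.187, beside 0.121 for Cox7c, by edgeR's quasi-likelihood test). Cox7a2l, which helps complexes III and IV to join into supercomplexes, went the other way, at 180.2 and 246 CPM at 4 days against 130.1 and 149 in L2i (log2 0.61 ± 0.16, adjusted p = 0.0133).

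Ndufa4, long counted with complex I and now placed in complex IV, and its paralog Ndufa4l2, known as a gene induced by low oxygen, are set side by side. Ndufa4 had 207 and 206 CPM in L2i, 143 and 160.3 in LIM, 156 and 175 at 35 h and 198 and 262 at 4 days. It was called higher at 4 days than in LIM (log2 0.60 ± 0.15, adjusted p = 0.0201 by edgeR's quasi-likelihood test), and lower in LIM than in L2i only with the line as a block (adjusted p = 0.0392). Ndufa4l2 had 0.552 and 0.398 CPM in L2i, 2.00 and 30.7 in LIM, 1.83 and 7.73 at 35 h and 0.818 and 5.68 at 4 days. It was the 1 nuclear member called higher in LIM (log2 5.06 ± 1.44, adjusted p = 0.0397), and the lines differed, with 30.7 CPM in CGR8 in LIM against 2.00 in R1. The call was lost without CGR8 in LIM or without either L2i library. With the block it was also called higher at 35 h against L2i (0.0442) and lower at 4 days against LIM (0.0437).

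**Figure D4:**
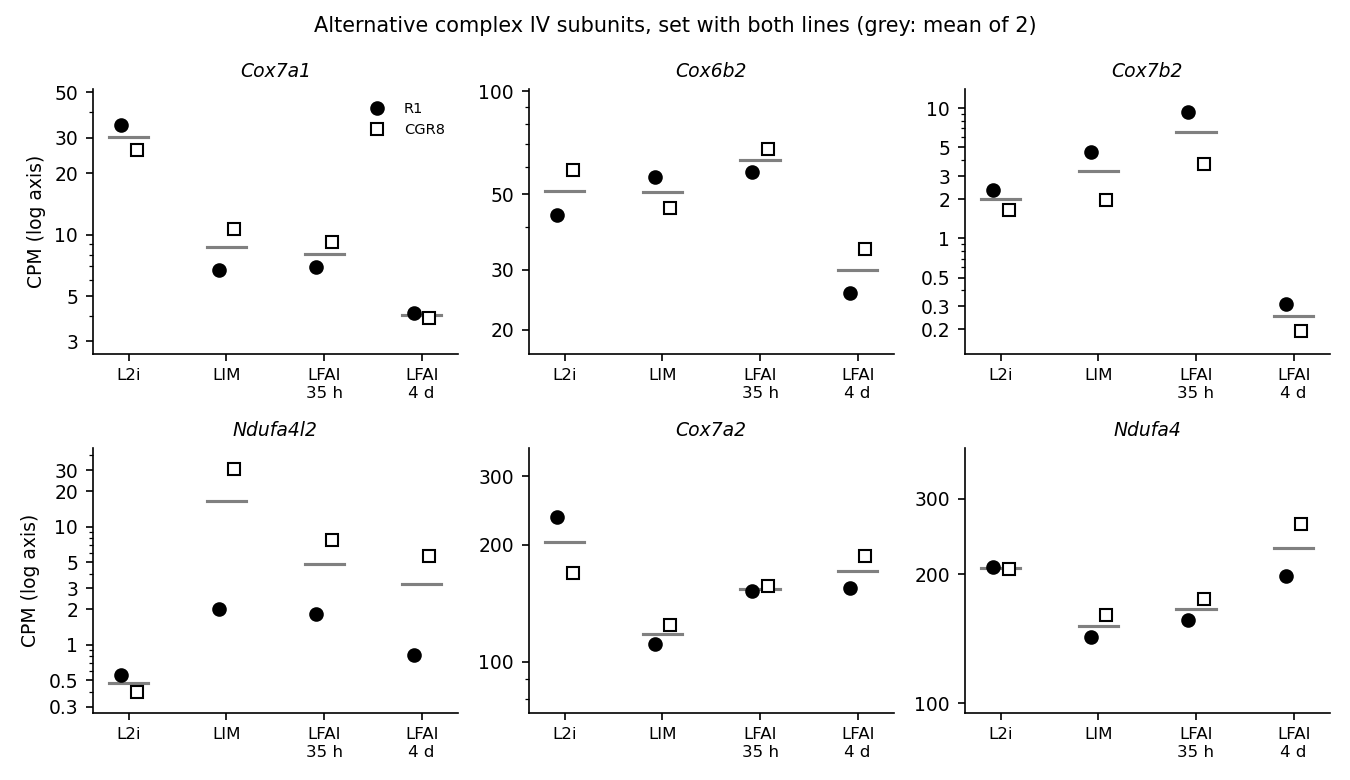
CPM (log axis) of Cox7a1, Cox6b2, Cox7b2, Ndufa4l2, Cox7a2 and Ndufa4 in each group of both lines; filled circles are R1, open squares CGR8 and grey bars the mean of 2. Cox7a1 is highest in L2i and lowest at 4 days of LFAI in both lines, Cox6b2 and Cox7b2 are lowest at 4 days, and Ndufa4l2 is above L2i in every other group of its line, most in CGR8 in LIM.

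Other alternative subunits were barely present. Cox4i2, the paralog of Cox4i1 known from lung, was at most 2.20 CPM in any library, Cox6a2 at most 1.11, and Cox8b had 1 count in all 17 libraries together. Their common partners Cox4i1, Cox6a1 and Cox8a were not called in any comparison, nor was Cox7b, the partner of Cox7b2. In L2i, Cox4i1 had 635 and 439 CPM and at 4 days 375 and 415.

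ATP synthase (complex V) had 4 of 17 nuclear members called lower in LIM (7.81% of all genes), where the median log2 fold of the 17 was -0.40. Atp5c1, the gamma subunit that turns inside the head, had 436 and 401 CPM in L2i, 249 and 313 in LIM, 311 and 306 at 35 h and 287 and 394 at 4 days in R1 and CGR8. Every library outside L2i was under both of L2i (log2 -0.57 ± 0.17, adjusted p = 0.0498 in LIM by edgeR's quasi-likelihood test), a call lost without any 1 of the L2i, LIM or 35 h libraries. Atp5g1 and Atp5g3 code for the same c subunit of the rotor ring. Atp5g3 had 448 and 385 CPM in L2i, 254 and 312 in LIM, 301 and 303 at 35 h and 332 and 379 at 4 days and Atp5g1 79.4 and 78.2 CPM in L2i, 42.7 and 58.3 in LIM, 55.4 and 52.7 at 35 h and 50.4 and 66.8 at 4 days. For both genes every library outside L2i was under both of L2i (LIM log2 -0.56 and -0.64, adjusted p = 0.0288 and 0.0478). The third c gene, Atp5g2, was at 1.01 to 1.83 CPM in this set. Atp5j, of the stalk, was the other one called in LIM (log2 -0.58). At 4 days against L2i the membrane subunit Atp5j2 was lower, at 88.0 and 109.8 CPM against 189.6 and 128 (log2 -0.69 ± 0.22, adjusted p = 0.0321). Atp5d, the delta subunit of the head, had 179 and 138 CPM in L2i, 117 and 142 in LIM, 139 and 114 at 35 h and 223 and 209.6 at 4 days, higher at 4 days than in LIM (log2 0.74 ± 0.17, adjusted p = 0.0131) and, with the line as a block, than in L2i (adjusted p = 0.0465). With the block, Atp5f1 was called higher at 4 days against LIM (0.0275).

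Cycs, for cytochrome c itself, had 8.73 and 22.0 CPM in L2i, 18.2 and 18.7 in LIM, 15.4 and 12.7 at 35 h and 26.0 and 32.3 at 4 days. The 4-day pair was the highest, and R1 in L2i the lowest, with a log2 fold at 4 days of 0.93 against L2i (adjusted p = 0.0688, or 0.0347 with the line as a block).

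These counts also changed when a library was left out. Each such refit has fewer residual degrees of freedom for every gene, so a lost call need not come from the values of that library. The share of all genes called in each refit is not given here. In LIM, the 16 nuclear members called lower became 2 without R1 in L2i, 1 without R1 in LIM, 7 without CGR8 in LIM and 10 without CGR8 in L2i, and the 1 higher became 0 without R1 in L2i or CGR8 in LIM. Without CGR8 in L2i the 1 higher was Cycs (log2 1.08, adjusted p = 0.039 by edgeR's quasi-likelihood test) and no longer Ndufa4l2. At 35 h, the 3 became 1 without R1 in L2i, without either 35 h library or without either LIM library. At 4 days against L2i, the 7 lower became 3 without R1 in L2i and 2 without R1 at 4 days, and the 2 higher became 7 without R1 at 4 days and 0 without CGR8 at 4 days. At 4 days against LIM, the 14 higher became 1 without CGR8 at 4 days, 1 without R1 in LIM, 8 without CGR8 in LIM and 9 without R1 at 35 h, and the 3 lower became 1 without either 4-day library. With the line as a block, 2 nuclear members were higher at 35 h and 4 at 4 days against L2i.

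In the R1 time course, with 1 library a day and no replicate check, the median nuclear member stayed close to day 0 in LIM. Their median log2 difference to day 0, with 1 CPM added, was -0.01, -0.16, -0.08 and -0.06 on days 1 to 4. On days 1 to 4, 0, 1, 1 and 1 of 91 were more than 1.5-fold higher, where 7.48%, 9.79%, 10.3% and 11.5% of all 13883 genes were, and 1, 0, 1 and 1 were more than 1.5-fold lower, where 5.51%, 6.48%, 9.07% and 9.08% were. Those of day 4 were Cox7b2, at 1.32 CPM on day 0 and 2.38, 3.88, 4.72 and 6.87 on days 1 to 4, and Ndufa4l2, at 5.12 and 1.98, 4.03, 0.608 and 1.06. The mitochondrial members had medians of -0.37, 0.30, -0.15 and -0.18, with day 2 standing above the others. mt-Co1, at 4357 CPM on day 0, had 3327, 5359, 3933 and 3850 in LIM.

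In LFAI the median nuclear member was lower from day 2 on, at -0.05, -0.20, -0.15 and -0.19. The number more than 1.5-fold lower was 1, 8, 11 and 14 of 91 on days 1 to 4, where all genes gave 4.80%, 14.7%, 18.2% and 18.4%. The share of members was under that of all genes on each day. The number more than 1.5-fold higher was 0, 0, 2 and 1, against 7.00%, 14.3%, 18.2% and 19.3%. Cox7a1 had 20.3 CPM on day 0 and 21.9, 5.57, 3.72 and 2.90 in LFAI, resting on 277 counts on day 0 and 40 on day 4 (95% exact Poisson interval 2.07 to 3.95 CPM, which covers counting error only). In LIM it had 22.1, 20.8, 21.1 and 21.4, with no day under day 0. Cox5a had 291 CPM and then 323, 169, 127 and 125 in LFAI, against 302, 284, 319.7 and 294 in LIM. Both, picked like the genes named next as members that fall in LFAI, stayed up on day 1 and dropped between days 1 and 2. Uqcr10 (166, 119, 94.3 and 90.0 from 188), Uqcrb (62.3, 40.7, 40.3 and 31.7 from 63.3), Cox6b1 (182, 130.1, 109 and 111 from 203) and Atp5g1 (62.7, 38.7, 35.8 and 36.5 from 64.0) also had their largest step between days 1 and 2. On day 4 the lowest members relative to day 0 after Cox7a1 were Cox5a (log2 -1.21), Uqcr10 (-1.06), Ndufb4 (-0.996) and Uqcrb (-0.98). The 1 member more than 1.5-fold higher by this measure was Atp5s (log2 0.66), which is not a subunit of the enzyme.

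**Figure D5:**
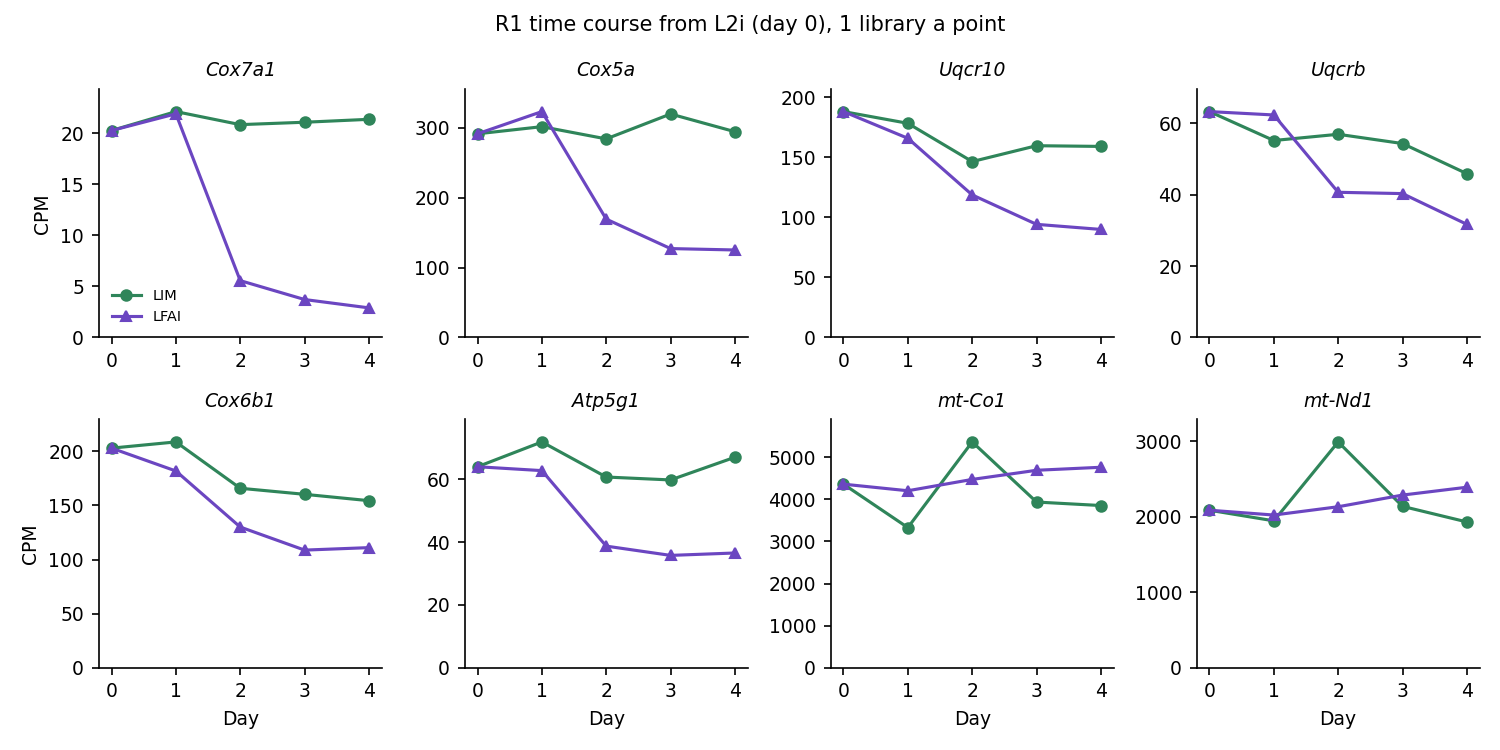
CPM of 6 nuclear and 2 mitochondrial members over days 0 to 4 in the R1 time course, in LIM (circles) and LFAI (triangles), 1 library a point. The 6 nuclear genes were picked as members that fall in LFAI, so their lower level there follows from the choice. They are lower on day 2 of LFAI than on day 1, and mt-Co1 and mt-Nd1 are not. Of all 91 nuclear members, 8 were more than 1.5-fold under day 0 on day 2 of LFAI, where 14.7% of all genes were. Cox7a1 and Cox5a keep their day 0 level in LIM.

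The mitochondrial members were not lower on day 4 of LFAI in this set. Their median log2 difference to day 0 was 0.14 on day 4, and 0 of 11 were below day 0. mt-Nd1 had 2087 CPM on day 0 and 2023, 2133, 2287 and 2391 in LFAI. In the set with both lines all 11 had a 4-day log2 fold below 0 against L2i, so the fit over both lines differs in sign from the time course for each of them. Within R1 alone, 6 of the 11 were above 0 at 4 days as in the time course, and within CGR8 alone 0 were. Without the CGR8 library in L2i, the median of the 11 in the fit at 4 days was 0.12 in place of -0.43. For nuclear members the sets can be set against each other across genes. Across the 91, Pearson's r between the log2 difference on day 4 of the time course and the fold in both lines was 0.51 in LFAI and -0.30 in LIM. The sign was the same in both sets for 63 of the 91 in LFAI and 61 in LIM. Within R1 alone it was the same for 72 in LFAI and 57 in LIM, and within CGR8 alone for 39 and 60. In LIM, 79 of the 91 were below 0 in the fit and 61 were on day 4, so many signs would match without any link between the sets gene by gene. In LIM, Ndufa4l2 lay far from the other members, at 5.06 in both lines and -1.57 in the time course. In LFAI, Cox7a1 was at -2.91 in both lines and -2.45 in the time course, Cox7b2 at -2.94 and 0.55, and Ndufa4l2 at 2.73 and 0.35. The values of r without these genes were not computed. Genes are not independent replicates, and the sets differ in coating and sequencing kit. R1 in L2i had 10 passages in L2i in the set with both lines and 5 in the time course. LIM means 4 days in the time course and 4 or 6 passages in the other set. For these reasons the values are descriptions. Cox7a1 was at 6.70 and 10.6 CPM after passages in LIM but at its day 0 level after 4 days of it.

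Other genes that serve the same machinery were counted from lists. Beside these counts, the shares of all genes called higher and lower were 11.3% and 7.81% in LIM, 7.35% and 7.16% at 35 h, 21.5% and 23.3% at 4 days against L2i, and 12.3% and 17.2% at 4 days against LIM. Of 77 mitochondrial ribosomal proteins tested, which build the ribosome that translates the mt- genes, 1 was called higher and 2 lower in LIM, 2 and 2 at 35 h, 17 and 6 at 4 days against L2i, and 20 and 1 at 4 days against LIM. The 17 are 22.1% of the list, near the share of all genes, and the 20 are 26.0%, above it. Their median log2 fold in these 4 comparisons was -0.15, -0.10, 0.14 and 0.29, beside -0.29, -0.25, -0.01 and 0.29 for the nuclear subunits. Mrps34 had the smallest p of the list in the last, at a log2 fold of 0.97 ± 0.17, adjusted p = 0.00352 by edgeR's quasi-likelihood test. The 42 further assembly factors had 0 higher and 2 lower in LIM, 2 and 2 at 35 h, 6 and 3 at 4 days against L2i, and 7 and 1 against LIM. At 4 days against L2i both shares, 14.3% and 7.14%, were below those of all genes. Surf1, needed to build complex IV, had 18.2 and 18.5 CPM in L2i, 26.7 and 17.8 in LIM, 30.5 and 26.0 at 35 h and 44.1 and 48.2 at 4 days, highest at 4 days (log2 1.33 ± 0.21, adjusted p = 0.00125 against L2i). Cox10, which makes heme for complex IV, was higher too (log2 0.81 ± 0.15, adjusted p = 0.00272).

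Of 29 genes for mitochondrial DNA copying, transcription and RNA maturation, 1 was higher and 1 lower in LIM, 0 and 1 at 35 h, 7 and 2 at 4 days against L2i, and 4 and 0 against LIM. The higher shares at 4 days, 24.1% against L2i and 13.8% against LIM, were near those of all genes. The 7 included Polg, the DNA polymerase, at 216 and 297 CPM against 156 and 151 in L2i (log2 0.74 ± 0.18, adjusted p = 0.01 by edgeR's quasi-likelihood test), and Twnk, the helicase (log2 0.56 ± 0.14, adjusted p = 0.0104). Of 10 translation factors, 1, 0, 3 and 0 were higher and 0, 1, 0 and 0 lower in the 4 comparisons, Mrrf, which recycles the ribosome, rising at 4 days (log2 1.06 ± 0.18, adjusted p = 0.00187).

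Among 11 tested regulators of respiratory genes, 1 was higher and 2 lower in LIM, 1 and 1 at 35 h, 2 and 2 at 4 days against L2i, and 2 and 1 against LIM. Esrrb, an orphan receptor of the ERR family that belongs to the naive pluripotency network, had 906 and 909 CPM in L2i, 312 and 417 in LIM, 340.4 and 555 at 35 h and 8.37 and 4.44 at 4 days. It fell in each comparison with L2i, 2.49-fold in LIM, 2.03-fold at 35 h and 141-fold at 4 days (adjusted p = 0.0146, 0.0458 and 6.25e-06 by edgeR's quasi-likelihood test). Gabpa was lower in LIM and at 4 days (log2 -0.55 ± 0.12, adjusted p = 0.0156 and -0.90 ± 0.12, adjusted p = 0.000506). Myc had 8.09 and 7.97 CPM in L2i, 29.7 and 18.9 in LIM, 38.3 and 34.1 at 35 h and 94.8 and 53.7 at 4 days, higher in all 3 comparisons with L2i (log2 1.60, 2.17 and 3.21, adjusted p = 0.00823, 0.00277 and 9.65e-05).

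Pyruvate dehydrogenase and the citric acid cycle feed complexes I and II, and of their 23 genes 0 were higher and 2 lower in LIM, 2 and 2 at 35 h, 3 and 4 at 4 days against L2i, and 5 and 2 against LIM. Pdk1, a kinase that switches pyruvate dehydrogenase off, had 36.8 and 71.4 CPM in L2i, 44.4 and 146 in LIM, 292 and 269 at 35 h and 53.5 and 68.7 at 4 days, and both 35 h libraries were above all others (log2 2.38 ± 0.50, adjusted p = 0.0154 against L2i by edgeR's quasi-likelihood test). Pdp2, a phosphatase that switches it on, had 111 and 74.6 CPM in L2i, 27.7 and 39.1 in LIM, 38.0 and 31.0 at 35 h and 25.1 and 19.3 at 4 days, with every library outside L2i under both L2i libraries (log2 -1.48 in LIM, -1.43 at 35 h and -2.07 at 4 days, adjusted p = 0.00525, 0.00753 and 0.000334). In the R1 time course Pdk1 was at 71.4 CPM on day 0, 36.0, 408, 226 and 226 in LFAI and 35.3, 44.4, 31.1 and 35.6 in LIM. Of 13 genes for other electron entry and inner membrane carriers, 1, 1, 0 and 3 were higher and 1, 2, 1 and 2 lower in the 4 comparisons. Gpd2, which feeds electrons from glycerol phosphate to quinone, was higher in LIM and at 35 h (log2 0.81 ± 0.13, adjusted p = 0.00349 and 0.81 ± 0.13, adjusted p = 0.00436), and Slc25a4, an ADP and ATP carrier, was lower at 35 h (log2 -1.31 ± 0.23, adjusted p = 0.00666).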

How the data were processed

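RNA from 17 libraries was prepared with the TruSeq Stranded mRNA kit and sequenced on a HiSeq2500, per the labels' protocols. The authors deposited raw counts per Ensembl gene, made with HISAT2 2.0.4 and HTSeq 0.6.1 on GRCm38 per the submitters' processing notes, which also name DESeq2 1.10.1. The strand setting and annotation release are not given in the sources used here. Entries naming no gene (47.7 to 51.9% of all entries tallied) were left out. Gene names came from GENCODE M21. The 8 libraries with both lines were fitted with edgeR 4.0.16 in R 4.3.3 (filterByExpr, 15525 genes, TMM, group means, quasi-likelihood test, two-sided, Benjamini-Hochberg over all genes), after a check on simulated data. CPM values are TMM-scaled within each set. The time course was described without tests, in 13883 genes. Log2 differences within a line and between days add 1 CPM to each value. The same line in each group pairs the libraries, and deviations of lines from group means correlated at 0.041 to 0.395. DESeq2 1.42.0, limma 3.58.1, the block, other scalings and filters were alternatives. Every member could be named, with full values for called and mitochondrial members and paralogs. From other lists, up to 4 genes with the smallest p per comparison were named. Members and lists were chosen with earlier results of these data known.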

Additional observations from a re-analysis of the deposited data

Results flagged for a closer look

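In 3 comparisons the lines moved in opposite directions in a summed level, given in percentage points of TMM-scaled counts. The difference between the lines was not tested, since each line has 1 library a group. The mitochondrial sum at 35 h of LFAI against L2i changed by 0.2513 in R1 and -0.5413 in CGR8. The nuclear sum at 4 days against L2i changed by -0.3102 in R1 and 0.1368 in CGR8. The mitochondrial sum at 4 days against LIM changed by -0.07713 in R1 and 0.2924 in CGR8.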

How the results depend on the processing

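With DESeq2 size factors, or with scaling from nuclear genes only, all 52 calls of members held, as they did with DESeq2's Wald test and with the cell line as a replicate block; limma-voom kept 48, no filter on low counts 49 and a fit of only the libraries compared 35. None of the 52 calls changed sign in these or the following. mt-Atp8, not among the 52, had log2 folds of opposite sign at 4 days against L2i without R1 in L2i and without CGR8 in L2i. With no filter, mitochondrial members lower were 7 in LIM and 5 at 4 days against L2i, 1 was higher at 4 days against LIM, and nuclear members at 35 h were 2 higher and 9 lower and at 4 days against L2i 5 higher and 11 lower. The Wald test gave 6 nuclear members lower at 35 h and 4 higher at 4 days against L2i. The block gave 2 higher at 35 h and 4 higher at 4 days against L2i, and ended no call. voom gave 0 higher in LIM. Fits of only the libraries compared gave 6 nuclear members lower in LIM and 9 higher at 4 days against LIM. With L2i and day 4 of LFAI from the R1 series added, and a term for the experiment, nuclear members at 4 days against L2i were 1 higher and 13 lower and mitochondrial members lower were 0; of 12 calls there, Uqcr10, Cox5a, Cox7a1, Cox7a2l and Atp5j2 were kept, and Ndufa2, Cox6b2, Cox7b2, Cox7c, mt-Nd1, mt-Nd6 and mt-Co1 were lost. Leaving out each library gave, for LIM, 0 to 1 nuclear higher, 1 to 15 nuclear lower and 0 to 5 mitochondrial lower; for 35 h, 1 to 4 nuclear lower and 0 to 2 mitochondrial lower; for 4 days against L2i, 0 to 7 nuclear higher, 2 to 8 nuclear lower, 0 to 1 mitochondrial higher and 1 to 5 mitochondrial lower; and for 4 days against LIM, 1 to 16 nuclear higher, 1 to 3 nuclear lower and 0 to 1 mitochondrial higher. The cause of these shifts was not tested, except that fewer libraries leave fewer residual degrees of freedom. At 0.818 to 3.65 CPM in this set, mt-Co2, mt-Co3 and mt-Atp6 are limited by their low counts.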

Other observations

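The 7 chromosome 1 pseudogenes that copy mitochondrial DNA were counted too. Their summed level was 6.78 to 15 CPM in the 8 libraries of R1 and CGR8 and 30.5 to 56.2 CPM in the 9 libraries of the time course, without overlap, the values being CPM of all gene counts with no scaling. The sets differ in sequencing kit version and coating, and which of these moves with the difference cannot be told apart.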
